A study of Mus musculus with 8 samples.

Results

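The genes described here are the zinc finger genes of the mouse numbered Zfp700 to Zfp999, taken by symbol from a table of 23107 genes. The rule was the letters Zfp followed by a number of 3 digits that begins with 7, 8 or 9 and by nothing else, and it found 98 genes, called members below. The study had pulled down DCP1A, a protein that activates mRNA decapping, with an antibody from ovarian cortex of mice at postnatal day 8 (RNA immunoprecipitation, RIP) and sequenced the RNA that came with it, to learn which RNAs it binds in primary oocytes. There were 4 input libraries and 4 RIP libraries of total RNA from mouse ovary, with no genotype, strain or treatment in the labels. None of these 8 libraries is labelled as a control antibody library, so RNA pulled down unspecifically was not measured. The labels do not tie a replicate to an animal or a pool of animals, so p-values cover the spread between these libraries only, and that spread may be technical.

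Most genes with such numbers encode proteins of C2H2 zinc fingers in tandem, each finger reading a short stretch of DNA. Many also carry a KRAB domain, which binds the corepressor TRIM28 and through it brings the histone methyltransferase SETDB1 and HP1 proteins to transposable elements and imprinted regions. The family has expanded by local duplication, so its genes lie in clusters of close relatives. Their mRNAs are rich in A and U and are known in human cells as cargo of processing bodies (P-bodies), the cytoplasmic granules in which DCP1A and the decapping enzyme lie. Transcript sequences were not used here, so the A and U content of the mouse members was not measured.

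All 98 members were placed on the mouse assembly GRCm38.p6, a patched mm10, through the RefSeq gene table, 96 by symbol and 2 by synonym. Zfp828 is there under the name Champ1, and Zfp862 as a transcribed pseudogene. Zfp783 is annotated as a long noncoding RNA, and the other 96 members as protein coding. Members were found on 16 chromosomes, with 20 on chromosome 7, 18 on chromosome 17, 15 on chromosome 8 and 10 on chromosome 13. A member was called clustered where at least 3 genes with a numbered Zfp symbol in RefSeq followed each other with gaps of at most 500000 bp. This was true of 69 members in 22 clusters, and the other 29 were called isolated. Zfp862 is named Zfp862-ps in RefSeq and was left out of the clusters for that name. It counts as isolated below, although its position (48504339 to 48534832) is inside the chromosome 6 cluster. The span of a member ran from 2520 to 187486 bp. At 34 members another annotated gene overlapped, and whether the counting used strand is not given, so their levels can include reads of that neighbour. The values of 6 members (Zfp708, Zfp783, Zfp809, Zfp810, Zfp872 and Zfp956) were not whole in at least 1 library, and how reads of near-identical relatives were shared out is not given. A further 22 genes of the table carry another symbol that RefSeq lists as a synonym of a gene numbered in this range, and the rule left these out.

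Libraries held 13098153 to 25757618 counts, and the members together took 0.159% to 0.217% of them. Levels are given as CPM, counts scaled to the library size after correction with TMM factors (trimmed mean of M-values). Input 3 stood apart, with a median level of the tested members of 3.57 on the log2(CPM + 0.5) scale where the other inputs had 2.93 to 3.03 and the RIP libraries 2.58 to 2.92. All tested genes had medians of 4.46 to 4.50 in input and 4.41 to 4.45 in RIP. Of 12 oocyte markers all were tested and summed to 1544 to 2237 CPM in input and 1653 to 2034 in RIP. The sums for granulosa cells (9 of 9 markers tested) were 933 to 2131 and 1114 to 1749 CPM, and for stroma and theca (8 of 9) 3048 to 4594 and 3074 to 5402. Endothelial (5 of 5), smooth muscle (4 of 4) and surface epithelium (5 of 6) markers summed to at most 147 CPM in each library, the 2 red cell markers at hand to at most 55.4 and the 4 immune markers to at most 8.19. No marker at hand had 0 counts in every library, and none passed the test between RIP and input. In bulk RNA of this kind, fewer cells of a type and less RNA per cell cannot be told apart.

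No member of Zfp700 to Zfp999 passed the test between DCP1A RIP and input. Of the 91 members with enough counts to be tested, 0 were called higher and 0 lower by the quasi-likelihood test of edgeR (p-values adjusted by Benjamini-Hochberg over all 14667 genes tested), where 0.0409% of all genes were called (0 higher and 6 lower). DESeq2 and limma voom with sample weights also called 0 members. With a block for the replicate number, edgeR called 0 members while the calls over all genes came to 13 higher and 42 lower. The lowest adjusted p among the members was 0.622. At an unadjusted p under 0.05, 1 member was higher (all genes 3.15%) and 3 were lower (all genes 4.28%), together 4.396% of the tested members against 7.43% of all genes.

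As a list the members lay slightly toward input. Their log2 fold changes of RIP over input had a median of -0.24, with quartiles at -0.79 and 0.22, where all genes tested had a median of -0.02 and quartiles at -0.39 and 0.33. A negative value was found for 57 of 91 members (62.6%, all genes 51.7%). Values under -1 were found for 16 members (17.6%, all genes 5.65%) and values over 1 for 4 (4.396%, all genes 5.21%). The 4 were Zfp750, Zfp786, Zfp819 and Zfp941, whose input means were at most 1.63 CPM. The 16 were all below the median abundance of all genes, and only Zfp791 among them had an unadjusted p under 0.05 in the reported edgeR fit, which had no block. The shares over all genes were not matched for abundance. The lower-numbered zinc finger genes Zfp1 to Zfp699 had a median of -0.13 over 229 tested of 242, with 134 negative and 0 called by edgeR, and an unadjusted p under 0.05 was found for 5 on the higher side and 16 on the lower. The members' summed level did not follow their median, since it was 1812, 1778, 1908 and 1815 CPM in inputs 1 to 4 and 1983, 1755, 1745 and 1685 CPM in RIP 1 to 4. The groups overlapped in this sum, at 1828 ± 55 CPM in input and 1792 ± 131 in RIP (SD, n = 4 each). The 10 members with the most counts held 50.04% of all member counts, so the sum describes mainly those.

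The list's small shift rested in part on input 3. Without that library the median of the members was -0.06 and that of all genes 0.02, and 50 of 92 tested members were negative. The medians of the members and of all genes were -0.01 and 0.014 between libraries numbered 1 and 2 only, and -0.32 and -0.027 between those numbered 3 and 4. They were -0.11 and 0.070 in the fit blocked on replicate number, and -0.064 and 0.073 by limma voom with sample weights. The members' median minus that of all genes was -0.22 in the reported fit, -0.18 with the block, -0.14 by limma voom and -0.083 without input 3. No other library moved the median by more than 1.5 times its size in either direction, the range without 1 of the other 7 being -0.35 to -0.17.

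**Figure D1:**
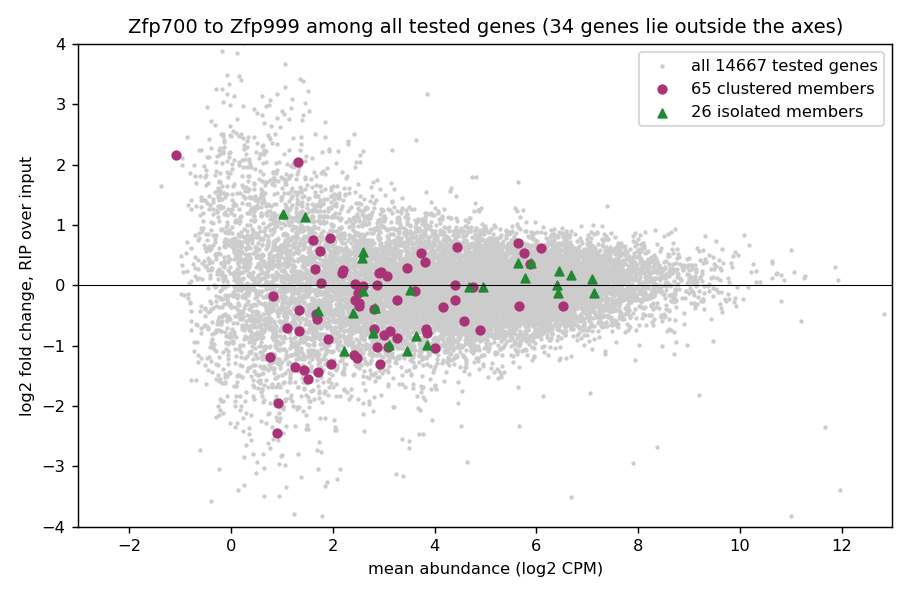
The log2 fold change of RIP over input (vertical axis) is plotted against mean abundance in log2 CPM (horizontal axis) for all 14667 tested genes in grey, the 65 clustered members as circles and the 26 isolated members as triangles. Members of high abundance lie close to 0 and those of low abundance spread mostly below it, inside the spread of the other genes.

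How far a member could be measured depended on its counts. The median member had 1124 counts over the 8 libraries together, and 13 tested members had 0 counts in at least 1 library. The standard error of a log2 fold change ran from 0.23 to 1.83 with a median of 0.63, where all genes tested had a median of 0.40. Only 20 tested members reached the median abundance of all genes, and these had a median log2 fold change of 0.06, with 11 positive and 9 negative. The 71 less abundant members had a median of -0.37 and 48 negative values, where less abundant genes in general had a median of -0.04. The 95% interval of the fold change lay below a 2-fold rise in RIP for 40 of 91 members (all genes 56.8%). It lay within 2-fold in either direction for 11 (12.1%, all genes 31.8%). For the members outside those 40 these libraries allow a 2-fold rise.

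The 4 members with the most counts are all isolated genes that are read at depth, and their levels in RIP and input overlapped. Zfp704 (chromosome 3, 9427010 to 9610085) was at 136, 94.5, 149 and 208 CPM in inputs 1 to 4 and 112, 148, 137 and 142 CPM in RIP 1 to 4. All RIP libraries lay inside the range of the inputs, and the log2 fold change was -0.13 ± 0.26 (SE; 95% interval -0.67 to 0.42). Zfp703, a transcriptional corepressor related to NocA of flies (chromosome 8, 26977336 to 26981462), was at 201, 188, 51.0 and 89.2 CPM in input and 237, 133, 95.3 and 101 CPM in RIP. Its spread followed the library numbers, with numbers 1 and 2 above 3 and 4 in both groups, and its log2 fold change was 0.10 ± 0.40. Zfp740, whose span overlaps Csad, had log2 0.18 ± 0.24, from 96.0 ± 20.5 CPM in input to 109 ± 22 in RIP (SD). That value was 0.34 without input 2, 0.12 without input 1 and 0.030 without RIP 1. Zfp706, a short zinc finger protein linked to the exit from stem cell self-renewal, had log2 -0.12 ± 0.29, with 89.9 ± 27.2 and 82.9 ± 22.8 CPM. The adjusted p of the 4 genes was 0.885 to 0.966 in edgeR.

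The member with the lowest p on the higher side was Zfp777, a KRAB zinc finger gene on chromosome 6 (48017660 to 48050004). It was at 35.9, 43.1, 66.9 and 68.6 CPM in inputs 1 to 4 and at 94.7, 87.4, 79.5 and 70.4 CPM in RIP 1 to 4. Every RIP library was above every input, although RIP 4 exceeded input 4 by little, and the log2 fold change was 0.63 ± 0.27 (SE; 95% interval 0.05 to 1.20, edgeR adjusted p = 0.639). Zfp787 on chromosome 7 was at 32.5, 62.7, 27.5 and 29.3 CPM in input and at 111, 46.3, 49.2 and 41.0 CPM in RIP. RIP 1 alone stood far above the rest, and input 2 lay above 3 of the 4 RIP libraries. Its log2 fold change was 0.70, and 0.26 without RIP 1. Zfp775, in the same cluster as Zfp777 on chromosome 6 (48602007 to 48621548), was at 23.1, 12.7, 15.6 and 16.1 CPM in input and 35.8, 19.9, 23.5 and 25.6 CPM in RIP. It was higher in RIP within all 4 numbers, but input 1 exceeded RIP 2, and its log2 fold change was 0.64 ± 0.34. Zfp768 on chromosome 7 (127342795 to 127345314), also higher within all 4 numbers, was at 44.2 ± 17.8 and 63.8 ± 18.7 CPM (SD; log2 0.53 ± 0.32). That value was 0.33 without RIP 1, 0.34 without input 4 and 0.82 without input 1.

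The remaining members named on that side overlapped between the groups. Zfp786, which was counted thinly, had 0 counts in inputs 1 and 2, 2.96 and 0.656 CPM in inputs 3 and 4, and 4.58, 5.19, 2.53 and 3.04 CPM in RIP (log2 2.04 ± 1.33, and 3.97 without input 3). Its span overlaps the zinc finger gene Zfp398, and the groups overlapped through input 3. Zfp956, whose span overlaps Zfp783, averaged 10.7 ± 4.6 CPM in input and 15.6 ± 1.7 in RIP (SD; log2 0.53 ± 0.41, and 0.33 without input 1 and 0.84 without input 3). The edgeR adjusted p of the 6 members named on the higher side was 0.639 to 0.796.

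On the lower side Zfp791 had the lowest p of all members. This isolated gene on chromosome 8 (85107168 to 85123095) was at 17.9, 14.8, 9.30 and 17.2 CPM in inputs 1 to 4 and at 6.43, 6.09, 7.64 and 7.51 CPM in RIP 1 to 4. All RIP libraries were below all inputs and close to each other, and the log2 fold change was -1.09 ± 0.42 (SE; 95% interval -1.98 to -0.21, edgeR adjusted p = 0.622). Zfp949, an isolated gene on chromosome 9 (88548020 to 88571086), was at 15.97, 12.5, 25.7 and 21.6 CPM in input and 9.01, 7.71, 11.5 and 9.98 CPM in RIP. The groups did not overlap here either (log2 -0.99 ± 0.39, 95% interval -1.81 to -0.17, edgeR adjusted p = 0.622). Zfp935, in a cluster on chromosome 13 (62453016 to 62466852), was at 40.4, 37.5, 41.7 and 27.5 CPM in input and 20.3, 22.9, 24.1 and 21.0 CPM in RIP. Its lowest input, number 4, was above its highest RIP library, number 3, and its log2 fold change was -0.74 ± 0.29 (95% interval -1.35 to -0.12, edgeR adjusted p = 0.622).

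The remaining 3 members on the lower side overlapped between the groups. Zfp712 on chromosome 13 did not separate fully, with 6.39, 2.72, 2.45 and 0.729 CPM in input and 0.222, 1.00, 0.703 and 0.285 CPM in RIP (log2 -2.45 ± 1.19). Zfp952 on chromosome 17 was at 6.98, 7.64, 22.2 and 5.90 CPM in input and 0.887, 4.86, 6.70 and 4.85 CPM in RIP (log2 -1.30 ± 0.66). Input 3 was far above the other inputs, and without it the value was -0.65. Zfp945, also on chromosome 17, was at 14.3, 10.7, 37.2 and 23.5 CPM in input and 4.43, 5.09, 19.2 and 13.3 CPM in RIP (log2 -1.03 ± 0.53). Here libraries 3 and 4 were above libraries 1 and 2 in both groups, and RIP was lower within each number. Without input 3 the value was -0.61. With the replicate number as a block Zfp945 had the lowest adjusted p of the members, 0.223 by edgeR.

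**Figure D2:**
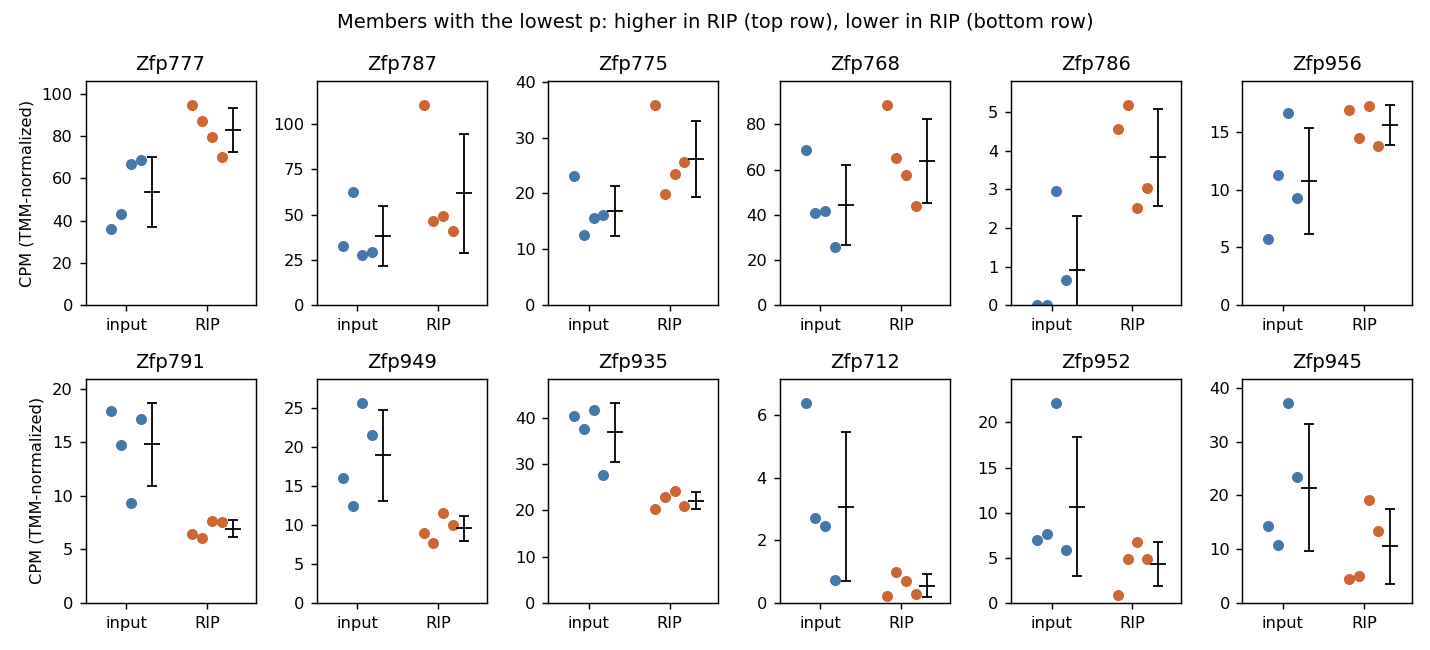
Each panel shows 1 member, with TMM-normalized CPM on a linear axis, 4 input and 4 RIP libraries as points in the order of their numbers, and bars for mean ± SD (the lower end for Zfp786 in input is cut at 0). The groups do not overlap for Zfp777 on the higher side and for Zfp791, Zfp949 and Zfp935 on the lower side.

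RIP and input did not overlap for 8 of 91 tested members (8.79%, all genes 5.29%). RIP lay above input for 3 (all genes 2.77%), namely Zfp777, Zfp940 and Zfp941, and below it for 5 (all genes 2.52%), namely Zfp791, Zfp949, Zfp935, Zfp943 and Zfp748. Zfp940, Zfp941, Zfp943 and Zfp748 lay outside the naming rule and are named after their values were seen. Zfp941 went from 1.63 ± 1.32 CPM to 3.61 ± 0.37, and Zfp748 from 10.9 ± 1.7 to 6.39 ± 2.50 (SD, n = 4 each). Comparing libraries of equal number, RIP was lower within all 4 numbers for 14 tested members (15.4%, all genes 9.9%) and higher within all 4 for 7 (7.69%, all genes 10.8%).

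Members with a known role were mostly thinly counted in this tissue, and none of the 11 passed (edgeR adjusted p 0.743 to 0.992). Zfp809, which binds the proline primer-binding site of retroviruses and recruits TRIM28 there, was at 5.29, 2.89, 8.79 and 5.97 CPM in inputs 1 to 4 and 6.50, 5.14, 2.25 and 7.23 CPM in RIP 1 to 4. The groups overlapped throughout (log2 -0.12 ± 0.63), and its span overlaps Zfp599. Zfp961, which reads a lysine primer-binding site, averaged 5.81 ± 3.41 CPM in input and 4.91 ± 1.11 in RIP (SD; log2 -0.24 ± 0.66). Zfp932, a repressor of endogenous retroviruses of the ERVK class, was at 1.93, 20.5, 13.5 and 9.18 CPM in input and 2.59, 6.95, 5.72 and 7.37 CPM in RIP. Library 1 was lowest in both groups, and RIP 1 exceeded input 1 while the other 3 numbers were lower in RIP (log2 -0.99 ± 0.63, and -0.54 without input 2). Zfp708, a gene of the chromosome 13 cluster, was at 7.14, 2.46, 5.35 and 0.291 CPM in input and 0, 2.48, 2.48 and 0.761 CPM in RIP (log2 -1.40 ± 1.24, and -0.91 without input 1). Its span overlaps Rslcan18. The germ cell gene Zfp819 was at the limit of detection, with 0 counts in inputs 1 to 3 and in RIP 1, 0.474 CPM in input 4 and 1.09, 0.750 and 0.523 CPM in RIP 2 to 4.

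Members known from somatic roles also did not separate. Zfp827, which brings the NuRD complex to telomeres, averaged 84.7 ± 22.8 CPM in input and 85.5 ± 9.0 in RIP, with log2 0.01 ± 0.25 and a 95% interval from -0.53 to 0.55. Zfp746, also called PARIS, a KRAB repressor of the coactivator gene Ppargc1a, was at 56.8 ± 24.9 and 44.5 ± 7.5 CPM (log2 -0.35 ± 0.32, 95% interval -1.03 to 0.33). Without input 2 that value was -0.070 and without input 4 it was -0.55. The X-linked gene Zfp711, whose product acts with the demethylase PHF8 at promoters, was at 4.80 ± 4.50 and 7.06 ± 2.36 CPM (log2 0.55 ± 0.73), and the value was 0.20 without input 2, 0.34 without input 4 and 1.39 without input 3. Zfp750, a regulator of epidermal differentiation that overlaps Tbcd, was at 1.17 ± 0.64 and 2.66 ± 1.64 CPM (log2 1.18 ± 1.09, and 0.78 without RIP 4).

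The 7 members that were not tested had too few counts in too many libraries for the filter, which does not go by the total alone. Zfp735 had 0 counts in every library, which allows 0.102 to 0.255 CPM per library at a floor of 3 counts (counting error only). Zfp781 had 5 counts in all, in input 2, and Zfp831 had 9, in inputs 1 and 3. Zfp811 had 23 counts, Zfp960 69 and Zfp872 78 over the 8 libraries. Zfp758 had 205 counts, at 2.00 ± 2.02 CPM in input and 0.35 ± 0.58 in RIP (SD, n = 4 each), and input 3 alone was at 4.33 CPM.

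No member passed the test in either arrangement, clustered or isolated. The 65 tested clustered members had a median log2 fold change of -0.35 and the 26 tested isolated ones, Zfp862 among them, -0.05. Of the 22 clusters, 5 held at least 5 members, 34 in all, and the other clustered members had a median of -0.09 over 33 tested. Low abundance went with clustering, since 56 of the 65 clustered members and 15 of the 26 isolated ones were below the median abundance of all genes. Below that median the clustered members were at -0.35 and the isolated ones at -0.43, so that at low abundance the difference between the arrangements was not in that direction. At or above it the 9 clustered members had a median of -0.03 and the 11 isolated ones 0.10, which is in that direction. The clusters were not tested against each other, and members of 1 cluster can share reads.

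Clusters on chromosomes 17 and 13 lay on the lower side. The positions given for a cluster here and below run from its first to its last member, and the cluster itself can reach beyond them. In the proximal chromosome 17 cluster (21565816 to 22867309) 8 of 9 tested members were negative, with a median of -1.15, among them Zfp943, Zfp944, Zfp945, Zfp946, Zfp947 and Zfp948. Their summed level was 48.9, 41.6, 123 and 45.1 CPM in inputs 1 to 4 and 25.7, 28.2, 50.7 and 36.1 CPM in RIP 1 to 4. RIP was lower within each number, but RIP 3 was above inputs 1, 2 and 4, and without input 3 the median was -0.59. In the distal chromosome 17 cluster (32765496 to 33033381) all 5 tested members were negative (Zfp763, Zfp799, Zfp870, Zfp871 and Zfp952), with a median of -0.83, which was -0.38 without input 3 and -0.50 without RIP 1. Their summed level was 191, 118, 181 and 126 CPM in inputs 1 to 4 and 98.0, 95.7, 115 and 138 CPM in RIP 1 to 4. That sum was lower in RIP within numbers 1 to 3, but RIP 4 was above inputs 2 and 4. In the chromosome 13 cluster at 67038594 to 67683512, 5 of 6 tested members were negative, with a median of -1.08 (-0.80 without input 3). Their sum was 42.9, 31.5, 42.1 and 28.1 CPM in input and 14.3, 24.0, 24.1 and 26.8 CPM in RIP, and here the 2 groups did not overlap, although input 4 was only just above RIP 4. With limma voom and sample weights the medians of the proximal and distal chromosome 17 clusters and of the chromosome 13 cluster were -0.61, -0.53 and -0.70. None of the members of these 3 clusters had an unadjusted p under 0.05 in the reported edgeR fit, which had no block.

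The chromosome 6 cluster (47815536 to 48621548) lay on the other side. Of the 6 members counted in it, Zfp775, Zfp777, Zfp783, Zfp786 and Zfp956 were positive and Zfp746 negative, with a median of 0.58. Zfp862, counted as isolated because of its RefSeq name, also lies there and was at 0.38. The sum of the 6 counted members was 137, 167, 154 and 136 CPM in inputs 1 to 4 and 209, 198, 176 and 158 CPM in RIP 1 to 4. RIP was above input within each number, while RIP 4 was below input 2. Taken within libraries 1 and 2 this median came to 0.75, and within libraries 3 and 4 to 0.20, and it was 0.68 without input 3 and 0.40 without input 1. In the chromosome 8 cluster (69209018 to 69774911) the median of 6 members was -0.55, which was -0.13 without input 3 and 0.15 within libraries 1 and 2 but -1.06 within libraries 3 and 4.

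**Figure D3:**
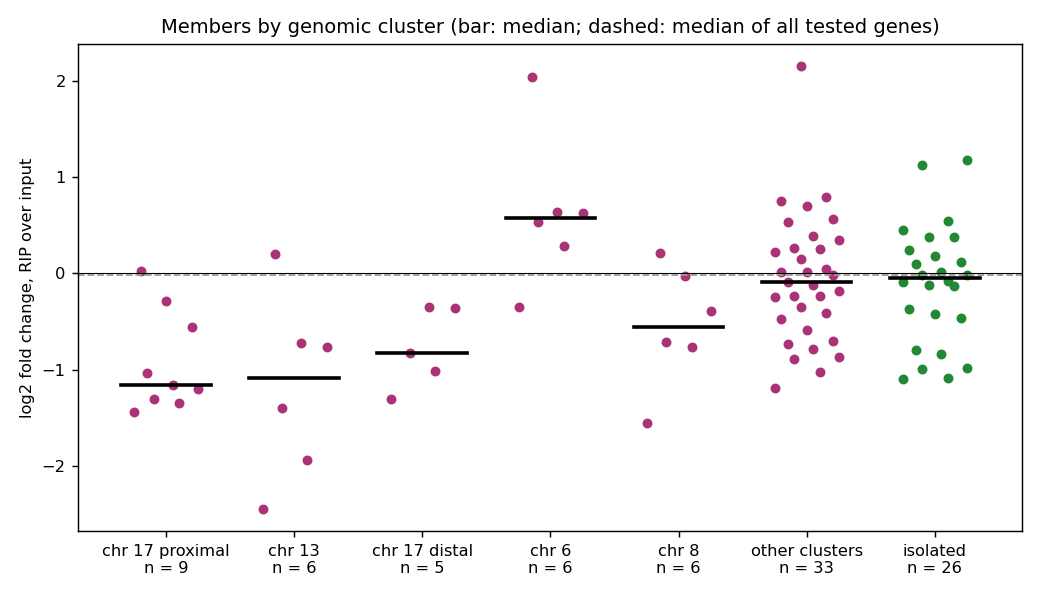
Points are log2 fold changes of RIP over input for the tested members of the 5 clusters with at least 5 members, of all other clusters and of isolated genes, with bars at the medians and a dashed line at the median of all tested genes. The clusters of chromosomes 17 and 13 lie mostly below 0 and that of chromosome 6 mostly above it.

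Other zinc finger genes counted in the same clusters, not all of them with a numbered Zfp symbol in the table, are no members. Such genes can lie outside the positions given above, which span the members only. They give values the rule did not use. Zfp398 overlaps the member Zfp786 and Zfp595 the member Zfp953, and relatives can share reads, so these values need not be independent of those of the members. In the chromosome 13 cluster 11 of 13 such tested genes were negative (median -0.52), and in the distal chromosome 17 cluster 6 of 7 (median -0.70). In the proximal chromosome 17 cluster 6 were negative and 6 positive (median -0.20). In the chromosome 6 cluster all 4, Zfp212, Zfp282, Zfp398 and Zfp467, were positive (median 0.54). Of the 7 remaining tested genes there 5 were positive (median 0.38), but these 7 include the member Zfp862, itself at 0.38. In the chromosome 13 and the proximal and distal chromosome 17 clusters the 1 remaining tested gene was at -1.33, 1.75 and 0.48. In the chromosome 8 cluster the 2 remaining genes had a median of -1.14. All tested genes of chromosomes 17, 13 and 6 had medians of 0.08, -0.12 and -0.05.

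**Figure D4:**
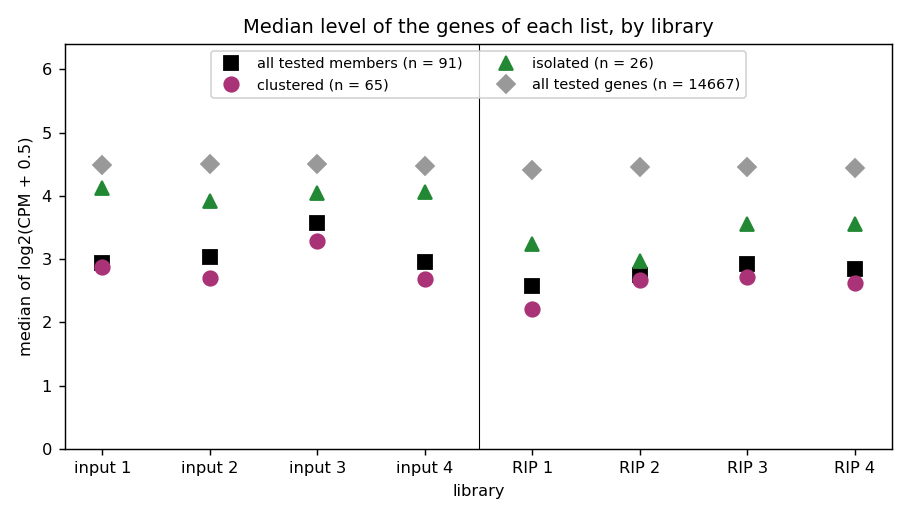
The median of log2(CPM + 0.5) over the 91 tested members, the 65 clustered, the 26 isolated and all 14667 tested genes is shown for each library. Input 3 is the highest for the members at 3.57, while the medians of all tested genes stay between 4.41 and 4.50.

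The level of the middle isolated gene differed more between the groups than the fold changes did. The median level of the 26 isolated members was 4.12, 3.92, 4.04 and 4.06 on the log2(CPM + 0.5) scale in inputs 1 to 4 and 3.24, 2.97, 3.55 and 3.55 in RIP 1 to 4. All RIP libraries were below all inputs, yet the median fold change of the same genes was -0.05, with 15 negative and 11 positive. These genes fall into 11 at or above the median abundance (median log2 fold change 0.10) and 15 below it (median -0.43).

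Genes for the cofactors of KRAB zinc finger proteins were read from a list of 30, of which 29 were tested. By edgeR 0 were called, and the median log2 fold change was -0.20. An unadjusted p under 0.05 was found for 5 (17.2%, all genes 7.43%), with 2 of them higher and 3 lower. RIP and input did not overlap for 6 (20.7%, all genes 5.29%), with RIP above input for 3 and below it for 3. The cofactor genes are abundant, with a median of 23130 counts against 3589 over all genes. Of 7334 genes at or above the median abundance, 308 were higher and 425 lower at that unadjusted p, and 6.30% did not overlap. Trim28, the corepressor itself, was at 472, 620, 208 and 308 CPM in inputs 1 to 4 and 591, 488, 378 and 394 CPM in RIP 1 to 4. The groups overlapped (log2 0.20 ± 0.31). The HP1 gamma gene Cbx3 was at 67.6, 56.3, 165 and 96.9 CPM in input and 19.7, 46.7, 55.7 and 57.3 CPM in RIP, where only RIP 4 exceeded input 2 (log2 -1.11 ± 0.38, edgeR adjusted p = 0.622, and -0.70 without input 3). Uhrf1, which recruits the maintenance methyltransferase DNMT1, was at 347 ± 59 and 526 ± 51 CPM (SD; log2 0.60 ± 0.22), and the NuRD subunit gene Gatad2a at 276 ± 19 and 409 ± 85 CPM (log2 0.57 ± 0.22). For Uhrf1 and Gatad2a all RIP libraries lay above all inputs, and none of these genes passed the test.

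**Figure D5:**
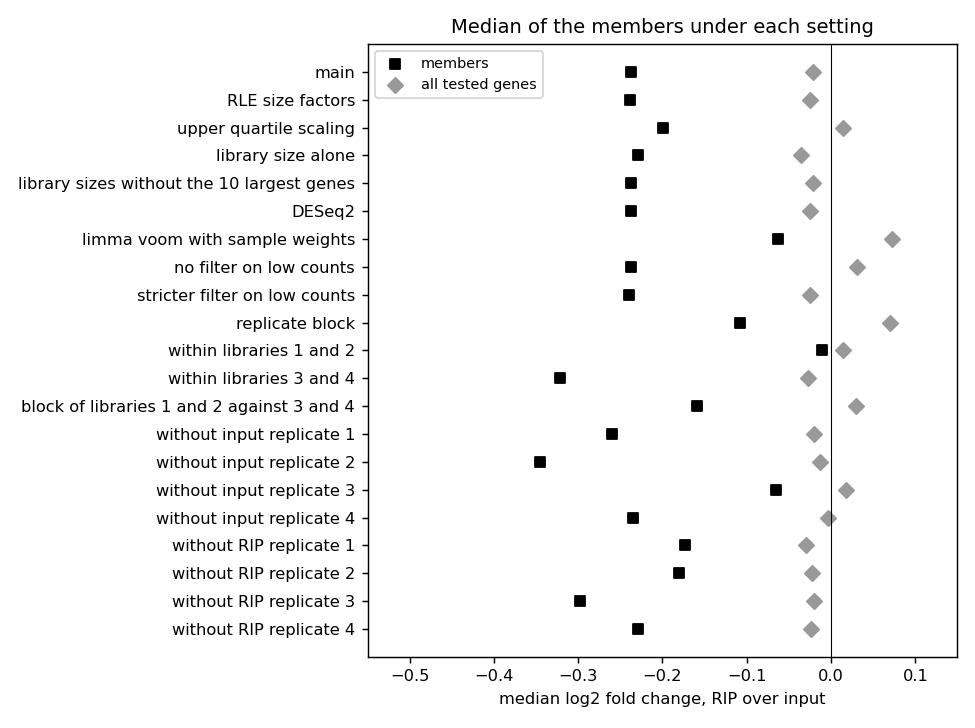
Squares give the median log2 fold change of RIP over input of the tested members and diamonds that of all tested genes, under the reported fit (main) and each other setting. The members' median runs from -0.35 to -0.01 and lies below that of all genes in every setting shown.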

How the data were processed

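Ovary input and DCP1A RIP libraries (4 each) were compared. Per the labels' protocols, a Magna RIP kit and a SMARTer stranded total RNA kit were used, and mm10 was the genome, per the submitters' processing notes. Which aligner, counting tool and annotation were used, and whether counting was stranded, is not given in the sources used here. The authors deposited estimated counts (expected counts) per gene, which were rounded. At most 1.85% of a library's values were not whole (tolerance 1e-09).

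In R 4.3.3, edgeR 4.0.16 was run on the whole table (TMM, filterByExpr with minimum count 10 and total 15, robust quasi-likelihood, Benjamini-Hochberg at 0.05), and members were read out. Standard errors are the log2 fold change over the root of F. The design had been written for counts, to be rounded where estimated, and its test was used. Deviations from group means of equally numbered libraries correlated at 0.12 to 0.21, all above 0.1. The best match of number 2 was 1, of 3 was 4 and of 4 was 3, and only number 1 matched its own best. These correlations do not settle whether equal numbers pair the samples. The reported fit had no block, and blocks on the number, or on numbers 1 and 2 against 3 and 4, were run as further fits. Alternatives used DESeq2 1.42.0 and limma 3.58.1. In simulated data for this comparison over 14259 genes, changes were placed only in genes above the median abundance. The test found 9 of 50 genes with a 2-fold change, 45 of 50 with a 4-fold one and 49 of 50 with an 8-fold one. It found all 50 with a 16-fold one, and made 9 false calls. Recovery was not simulated for less abundant genes, to which 71 of the 91 tested members belong.

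Members, gene lists and the grouping of library numbers were chosen with earlier results of these data known. Named were members past the threshold, the 6 with the lowest p on each side, the 4 with the most counts, 11 of known role, and Trim28 with the 4 cofactors of lowest p, of which 1 is not reported here. Floors cover counting error only, and amplified reads may not be independent.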

Additional observations from a re-analysis of the deposited data

Results flagged for a closer look

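In 7 of 66 groups of 4 libraries examined, 1 library stood apart from the other 3 by Dixon's criterion at the 95% level, which chance gives in about 1 of 20 groups. Zfp787 was at 62.7 CPM in input 2, where the other inputs were at 27.5 to 32.5, and at 111 CPM in RIP 1, where the other RIP libraries were at 41.0 to 49.2. Zfp740 was at 127 CPM in input 2 (others 83.4 to 87.4) and at 141 CPM in RIP 1 (others 94.4 to 99.7). Zfp952 was at 22.2 CPM in input 3 (others 5.90 to 7.64). Zfp819 was at 0.474 CPM in input 4 and had 0 counts in the other inputs. Where the other values are tied the criterion flags any differing value, so the rate of 1 in 20 does not apply to that group. The median level of the tested members was 3.57 on the log2(CPM + 0.5) scale in input 3 (others 2.93 to 3.03), as given above beside the result it touches.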

How the results depend on the processing

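The count of 0 members called held in all 20 other fits and at an adjusted p threshold of 0.01, and the lowest adjusted p of a member over those fits was 0.166 (Zfp945, with libraries 1 and 2 against 3 and 4 as a block). The median of the members stayed negative, from -0.35 to -0.01. Of 30 named genes 21 kept their sign in every fit, and 0 passed in any. Over all genes, calls were 13 higher and 43 lower by DESeq2, 13 and 42 with the replicate block, 12 and 43 with the block of number groups, 3 and 24 within libraries 1 and 2, and 20 lower by limma voom. Leaving out 1 library gave 0 to 1 higher and 4 to 16 lower.

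The sign turned for 9 named genes, and the cause was not tested. Within libraries 1 and 2 the log2 fold change was 0.17 for Zfp704, -0.081 for Zfp703, 0.11 for Zfp706, 0.50 for Zfp809 and -0.022 for Trim28. Within libraries 3 and 4 it was 0.064 for Zfp746, -0.26 for Zfp827 and 0.68 for Zfp961. By limma voom it was 0.012 for Zfp706, 0.0012 for Zfp708, -0.041 for Zfp827 and 0.44 for Zfp961, and with library size alone -0.023 for Zfp827. Without 1 library it ran from -0.29 to 0.094 for Zfp704, -0.27 to 0.37 for Zfp703, -0.28 to 0.067 for Zfp706, -0.34 to 0.17 for Zfp809, -0.14 to 0.17 for Zfp827, -0.54 to 0.17 for Zfp961 and -0.0062 to 0.49 for Trim28. Depth limits the thinly counted members most, since the median standard error below the median abundance was 0.70.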
